A study of Mus musculus with 8 samples.

Results

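The globin genes encode the protein chains of haemoglobin, and 7 of them were followed here in embryonic mouse lung: the beta-like genes Hbb-y, Hbb-bh1, Hbb-bs and Hbb-b1 and the alpha-like genes Hba-x, Hba-a1 and Hba-a2. They were taken by name from the 23997 gene symbols of the deposited tables, where they occupied 9 of 24487 records, since Hba-a1 and Hba-a2 were each listed at both copies of the adult alpha gene. They were chosen by their measured FPKM, for the change between stages in whole lung and the level in the purified fraction, so those values are given as a description with no test. Only the comparison of mutant with wild type was tested for them.

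The study profiled Sox9 progenitors, the cells of the growing epithelial tips of the lung, by translating ribosome affinity purification (TRAP), which recovers mRNA from the ribosomes of labelled cells. The label was induced with tamoxifen and ribosomes were precipitated through the ribosomal protein L10. All 8 libraries came from C57BL/6 embryonic lung. The groups were TRAP from Sox9 mutant lungs at embryonic day 16 (E16, 2 libraries) and from wild-type lungs at E16 (2 libraries), wild-type TRAP at E17 and at E14 (1 library each), and wild-type whole lung homogenate at E17 and at E14 (1 library each). The driver of the label and the Sox9 alleles are not given in the sources used here. E13 appears beside E16 in the titles of the E16 libraries without explanation, and the design text names a supernatant where the label of the E14 reference says whole lung. Whether the replicates are different animals is not stated, so a p-value here reflects the variation of the sequenced libraries alone, which may be technical.

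Haemoglobin is a tetramer of alpha-like and beta-like chains around haem. In the mouse embryo, primitive red cells from the yolk sac first carry embryonic chains, and definitive red cells made in the fetal liver carry adult chains. The embryonic beta-like chains come from Hbb-y and Hbb-bh1 and the embryonic alpha-like (zeta) chain from Hba-x. The adult chains come from Hba-a1 and Hba-a2 and from the adult beta genes, which differ between haplotypes: Hbb-bs and Hbb-bt belong to the single haplotype carried by C57BL/6, whereas Hbb-b1 is a gene of the diffuse haplotype. Lung epithelium is not a site of red cell formation, and red cells reach the lung with the blood.

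The files place the beta locus on chromosome 7 and the alpha locus on chromosome 11 (mm10). Along chromosome 7, Hbb-bt lay at chr7:103812524-103813923, Hbb-bs at chr7:103826523-103827928, Hbb-b1 at chr7:103826532-103827929, Hbb-bh1 at chr7:103841638-103843162 and Hbb-y at chr7:103851754-103853207. Hbb-bs and Hbb-b1 therefore covered nearly the same bases, so fragments had to be divided between those 2 records. Along chromosome 11, Hba-x lay at chr11:32276600-32278115, and the adult alpha records lay in pairs at a first copy (Hba-a1 at chr11:32283672-32284486, Hba-a2 at chr11:32283675-32284493) and a second copy (Hba-a1 at chr11:32296489-32297303, Hba-a2 at chr11:32296492-32297310). Values of single records within these pairs are uncertain, and the sum of each pair and of each locus is given beside them.

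Promoters are printed to show how the 2 classes of gene, and the 2 adult alpha copies, compare at the sequence that starts their transcription. Each line gives the 120 bases before the start in RefSeq (GRCm38.p6), 5′ to 3′ on the gene's own strand. The windows are chr7:103853208-103853327, chr7:103827929-103828048 and chr7:103813924-103814043 on the minus strand and chr11:32276480-32276599, chr11:32283552-32283671 and chr11:32296372-32296491 on the plus strand. Hbb-bt is no member but is shown as the other adult beta gene. Capitals mark 5 short motifs on either strand: the TATA-type motifs written TATAA or, as a variant, written ATAAA, which may overlap each other, the CCAAT box, the CACCC box and the erythroid factor motif GATAA.
Hbb-y: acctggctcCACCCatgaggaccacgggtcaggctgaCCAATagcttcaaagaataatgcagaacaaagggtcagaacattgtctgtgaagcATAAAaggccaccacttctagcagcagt
Hbb-bs: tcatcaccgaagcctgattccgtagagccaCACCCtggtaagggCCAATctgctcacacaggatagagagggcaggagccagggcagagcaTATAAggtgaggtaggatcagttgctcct
Hbb-bt: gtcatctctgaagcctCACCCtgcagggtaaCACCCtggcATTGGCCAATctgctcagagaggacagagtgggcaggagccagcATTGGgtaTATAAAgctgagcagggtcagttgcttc
Hba-x: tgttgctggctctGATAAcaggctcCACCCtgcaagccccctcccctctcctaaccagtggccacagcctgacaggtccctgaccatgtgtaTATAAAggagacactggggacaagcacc
Hba-a1: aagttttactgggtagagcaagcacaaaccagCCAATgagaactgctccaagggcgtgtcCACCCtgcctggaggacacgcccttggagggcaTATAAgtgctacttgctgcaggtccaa
Hba-a2: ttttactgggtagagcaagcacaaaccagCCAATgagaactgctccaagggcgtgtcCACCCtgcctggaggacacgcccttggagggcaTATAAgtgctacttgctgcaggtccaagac
All 6 windows held the CACCC box and a TATA-type motif. The CCAAT box was found in each window except that of Hba-x, and GATAA was found in the Hba-x window alone. Hbb-y had ATAAA where the 2 adult beta windows had TATAA. Among 32851 RefSeq promoter windows of the same length, 11.8% held TATAA and 20.2% held the variant ATAAA, 21.3% held the CCAAT box, 31.7% the CACCC box and 10.5% the motif GATAA, and 1.27% held both boxes and either TATA-type motif together. The Hba-a1 and Hba-a2 windows of 300 bases around the start shared an unbroken run of 297 bases. Hbb-bs and Hbb-bt shared at most 14 in a row. A match of letters is a description and shows no binding.

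The libraries rested on 9783768 to 21500523 fragments each, inferred from the deposited confidence bounds. Bounds printed here cover no variation between libraries. For records that share bases they are wider than counting error alone. In E17 whole lung Hbb-b1, at 7058 FPKM, came out at only 2275 fragments, and Hbb-bt, at 3974 FPKM and of similar length, at 39616. The inferred fragments of such shared records are therefore too few. Expression is in FPKM, fragments per kilobase of transcript scaled by library, so levels of different genes can be set side by side per length. Sox9 itself stood at 12.8 and 11.03 FPKM in the mutant libraries and at 35.9 and 36.4 FPKM in the wild-type libraries, lower in both mutant libraries. It stood at 68.5 FPKM in E17 TRAP against 16.7 FPKM in E17 whole lung, and at 63.9 FPKM in E14 TRAP against 14.98 FPKM in E14 whole lung.

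The embryonic globins were far lower at E17 than at E14 in whole lung, while the adult globins were higher. Hbb-y, the embryonic epsilon-type chain, stood at 151 FPKM in E17 whole lung and at 8905 FPKM in E14 whole lung, a level 58.5-fold lower at E17. Hbb-bh1, the other embryonic beta-like chain, stood at 2.68 FPKM at E17 (bounds 1.62 to 3.73) and at 169 FPKM at E14 (bounds 162 to 176), 46.2-fold lower at E17. Hba-x stood at 95.9 FPKM at E17 and 1789 FPKM at E14, 18.5-fold lower at E17. In none of these 3 genes did the bounds of the 2 libraries overlap. With 1 library per stage there is no replicate check.

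Hbb-b1, the record that took most of the shared adult beta fragments, stood at 7058 FPKM in E17 whole lung and 2617 FPKM in E14 whole lung. Hbb-bs stood at 168 FPKM at E17 and 79.8 FPKM at E14. Their sum was 7226 FPKM at E17 and 2696.5 FPKM at E14, 2.68-fold higher at E17, and Hbb-bs made up 2.32% of the sum at E17 and 2.96% at E14. Hbb-bt, the neighbouring adult beta gene, was 2.07-fold higher at E17, with 3974 FPKM at E17 and 1920.5 FPKM at E14.

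The adult alpha records differed less between the stages. Hba-a1 and Hba-a2 together gave 9202 FPKM at E17 and 5775 FPKM at E14 at the first copy, 1.59-fold higher at E17. At the second copy they gave 5817 FPKM at E17 and 4529 FPKM at E14, 1.28-fold higher at E17. Among the single records the log2 difference, taken on FPKM + 1, lay between 0.07 for Hba-a2 at the second copy and 0.76 for Hba-a1 at the first copy.

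**Figure D1:**
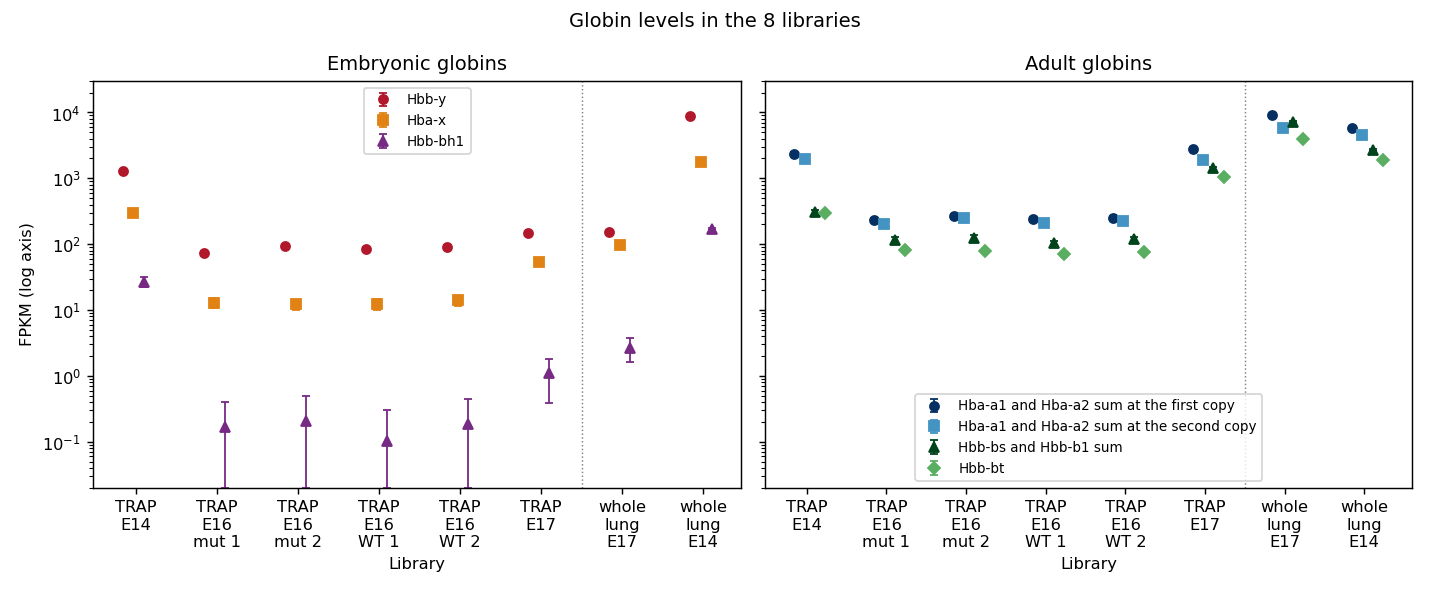
Levels of the embryonic globins (left) and of the adult globins, with overlapping records summed (right), in FPKM on a log axis for each of the 8 libraries, where mut is the Sox9 mutant and WT the wild type. Bars span the deposited confidence bounds, added over the records where records are summed, and a lower bound of 0 is drawn to the edge of the axis. Hbb-y is the highest embryonic globin in every library and is 8905 FPKM in E14 whole lung, and the 4 E16 libraries sit below the other TRAP libraries for every gene shown.

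Counted over records, 2 of the 9 member records (Hbb-bs and Hbb-b1) were at least 2-fold higher in E17 than in E14 whole lung and 3 (Hbb-y, Hbb-bh1 and Hba-x) at least 2-fold lower, where 4.83% and 1.3% of all 12493 records were. The choice of the genes used this contrast, so nothing is read from those shares. Hbb-bs, with a log2 difference of 1.06, was the member just past 2-fold, and Hba-a1 at the first copy, with 0.76, the member just short of it. The sum of the 3 embryonic globins was 249.8 FPKM at E17 and 10862 FPKM at E14 (log2 difference -5.44). The sum of the adult globins was 26218 FPKM at E17 and 14921 FPKM at E14 (log2 difference 0.81).

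The 2 loci changed composition far more than they changed in total. Hbb-y and Hbb-bh1 made up 1.36% of the beta locus sum in E17 whole lung and 66.3% in E14 whole lung. Hba-x made up 0.635% of the alpha locus sum at E17 and 14.8% at E14. The beta locus summed to 11353 FPKM at E17 and 13691 FPKM at E14 (log2 difference -0.27), and the alpha locus to 15117 FPKM at E17 and 12096 FPKM at E14 (log2 difference 0.32). The ratio of alpha to beta FPKM was 1.33 at E17 and 0.883 at E14. Globins took up 4.22% of the FPKM total at E17 and 4.44% at E14, over records of at least 200 bases. In bulk samples, fewer cells of a type and less RNA per cell cannot be told apart.

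The remaining records at the loci were near 0. Hbq1b and Hbq1a, theta-type alpha-like genes, reached at most 1.81 and 1.45 FPKM, both in E14 whole lung, and Hbb-bh2 was listed at 0 in all 8 libraries. Cygb, which encodes cytoglobin, an oxygen-binding protein of fibroblast-like cells, stood at 9.09 FPKM in E17 whole lung and 4.24 FPKM in E14 whole lung, and at 2.12 FPKM in E17 TRAP and 0.259 FPKM in E14 TRAP. Ngb, which encodes neuroglobin, stood at 3.45 FPKM in E17 and 3.88 FPKM in E14 whole lung and at most at 0.834 FPKM in TRAP. Mb, which encodes the muscle oxygen store myoglobin, and Adgb, which encodes androglobin, stayed at or under 1.38 and 0.123 FPKM.

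TRAP libraries held less globin mRNA than whole lung, but every member except Hbb-bs at E14 had a lower bound above 0 in E17 and E14 TRAP. Hbb-y stood at 150.2 FPKM in E17 TRAP against 151 FPKM in E17 whole lung, and its bounds overlapped (142 to 158 and 143 to 159). At E14 it stood at 1294 FPKM in TRAP against 8905 FPKM in whole lung, with no overlap. The TRAP level of Hbb-y was thus 99.3% of the whole lung level at E17 and 14.5% at E14. These percentages and the overlap of bounds depend on the library scaling, which is not described. At E17 the FPKM total was 1048340 in TRAP and 683610 in whole lung. Over records of at least 200 bases it was 653031 in TRAP and 626734 in whole lung.

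Hba-x stood at 52.9 FPKM in TRAP against 95.9 FPKM in whole lung at E17, and at 300.2 FPKM in TRAP against 1789 FPKM in whole lung at E14. Hbb-bh1 stood at 1.11 FPKM in TRAP against 2.68 FPKM in whole lung at E17, where its bounds overlapped (0.392 to 1.82 and 1.62 to 3.73), and at 26.9 FPKM in TRAP against 169 FPKM in whole lung at E14. The TRAP level of Hba-x was 55.1% of whole lung at E17 and 16.8% at E14, and that of Hbb-bh1 was 41.3% at E17 and 15.9% at E14. All 3 embryonic globins therefore stood nearer to their whole lung level at E17.

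The adult beta genes were also lower in TRAP than in whole lung. Hbb-b1 stood at 1338 FPKM in TRAP against 7058 FPKM in whole lung at E17, and at 309 FPKM in TRAP against 2617 FPKM in whole lung at E14. Hbb-bs stood at 80.6 FPKM in TRAP against 168 FPKM in whole lung at E17, and at 0.00621 FPKM in TRAP (upper bound 0.351) against 79.8 FPKM in whole lung at E14. Summed, the pair reached 19.6% of whole lung at E17 and 11.4% at E14, and Hbb-bt 26.5% at E17 and 15.7% at E14.

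As deposited, the Hba-a1 records were nearer to their whole lung level than the Hba-a2 records at both stages. The 2 records cover nearly the same bases at each copy, so this split is uncertain and is not read as a difference between the genes. Their sum reached 30.7% of whole lung at E17 and 41.2% at E14 at the first copy, and 33.0% at E17 and 44.0% at E14 at the second copy. Hba-a1 at the first copy stood at 1981 FPKM in TRAP against 6062 FPKM in whole lung at E17, and at 1758 FPKM in TRAP against 3589.8 FPKM in whole lung at E14. At the second copy Hba-a1 stood at 1519.95 FPKM in TRAP against 4118 FPKM in whole lung at E17, and at 1665 FPKM in TRAP against 2913 FPKM in whole lung at E14. Over both copies Hba-a1 reached 34.4% of whole lung at E17 and 52.6% at E14, and Hba-a2 25.6% at E17 and 24.9% at E14. The alpha locus as a whole reached 31.7% of whole lung at E17 and 38.6% at E14, and the beta locus 23.1% at E17 and 14.1% at E14.

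**Figure D2:**
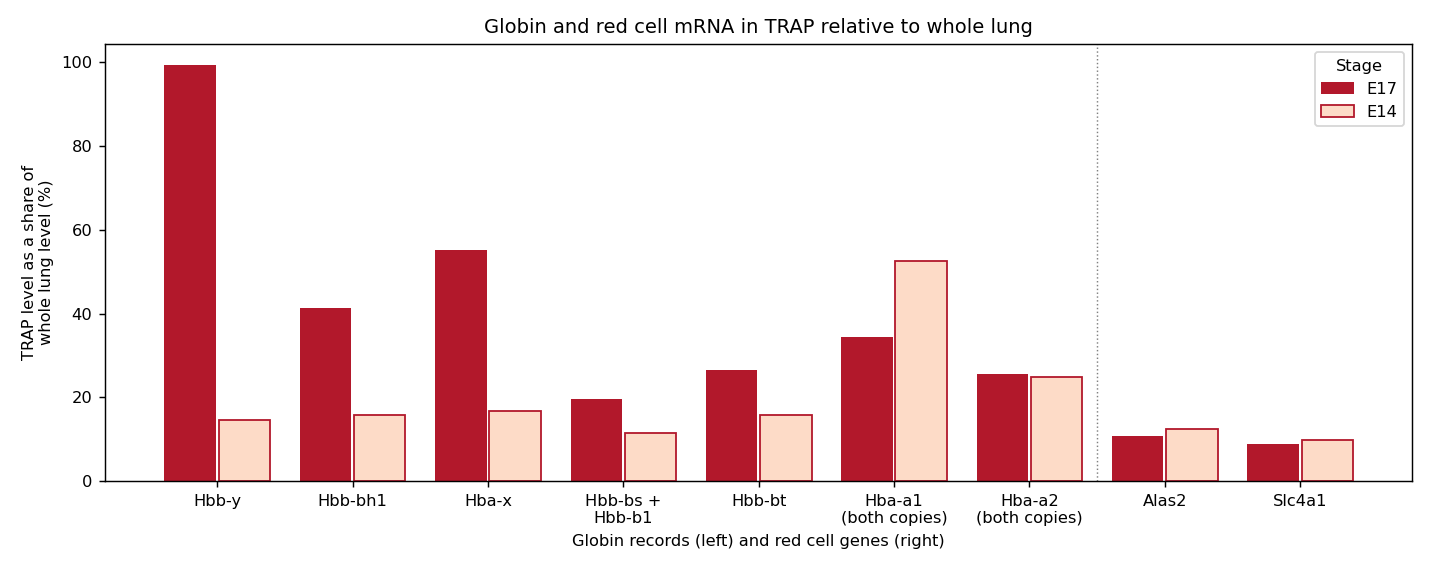
TRAP level as a percentage of the whole lung level of the same stage, for globin records or sums (left of the dotted line) and for the red cell genes Alas2 and Slc4a1 (right), with E17 bars left of E14 bars and 1 library per bar in each fraction. Hbb-y is the tallest bar at E17 with 99.3%, and Alas2 and Slc4a1 are at 10.7% and 8.88% at E17. Bar heights depend on how the libraries were scaled, which is not described. These 2 genes do not stand for the red cell lists, in which 10 genes rose and 14 fell in TRAP. The Hba-a1 and Hba-a2 bars divide fragments of the same bases, so the difference between them is uncertain.

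Among the 9 member records, 6 were at least 2-fold lower in TRAP than in whole lung at E17 and 8 at E14, where 9.13% and 9.58% of all records were. Their median log2 difference was -1.44 at E17 and -2.57 at E14, beside 0.07 and 0.03 over all records. These values too were in view when the genes were chosen. The globins took up 1.14% of the FPKM total in E17 TRAP against 4.22% in E17 whole lung, and 1.04% in E14 TRAP against 4.44% in E14 whole lung, over records of at least 200 bases.

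Within TRAP the same genes differed between the stages. Hbb-y was 8.56-fold, Hbb-bh1 13.2-fold and Hba-x 5.59-fold lower in E17 than in E14 TRAP, smaller ratios than the 58.5-fold, 46.2-fold and 18.5-fold of whole lung. The sum of Hbb-bs and Hbb-b1 was 4.59-fold higher at E17, with 1419 FPKM in E17 TRAP and 309 FPKM in E14 TRAP, and Hbb-bt was 3.47-fold higher. The adult alpha sum was 1.08-fold higher, with 4740.05 FPKM in E17 TRAP and 4369 FPKM in E14 TRAP. Over records, 2 of 9 were at least 2-fold higher and 3 at least 2-fold lower in E17 TRAP, where 4.75% and 1.91% of all records were.

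The embryonic share of the beta locus was 68.4% in E14 TRAP, between 27.3% and 32.7% in the 4 E16 TRAP libraries and 5.77% in E17 TRAP. The embryonic share of the alpha locus was 6.43% in E14 TRAP, between 2.33% and 2.88% at E16 and 1.10% in E17 TRAP. A share within a library does not depend on how the library was scaled. At E14 the beta share in TRAP was close to the 66.3% of whole lung, and the alpha share was below its 14.8%. At E17 both TRAP shares were above those of whole lung, 5.77% against 1.36% and 1.10% against 0.635%.

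**Figure D3:**
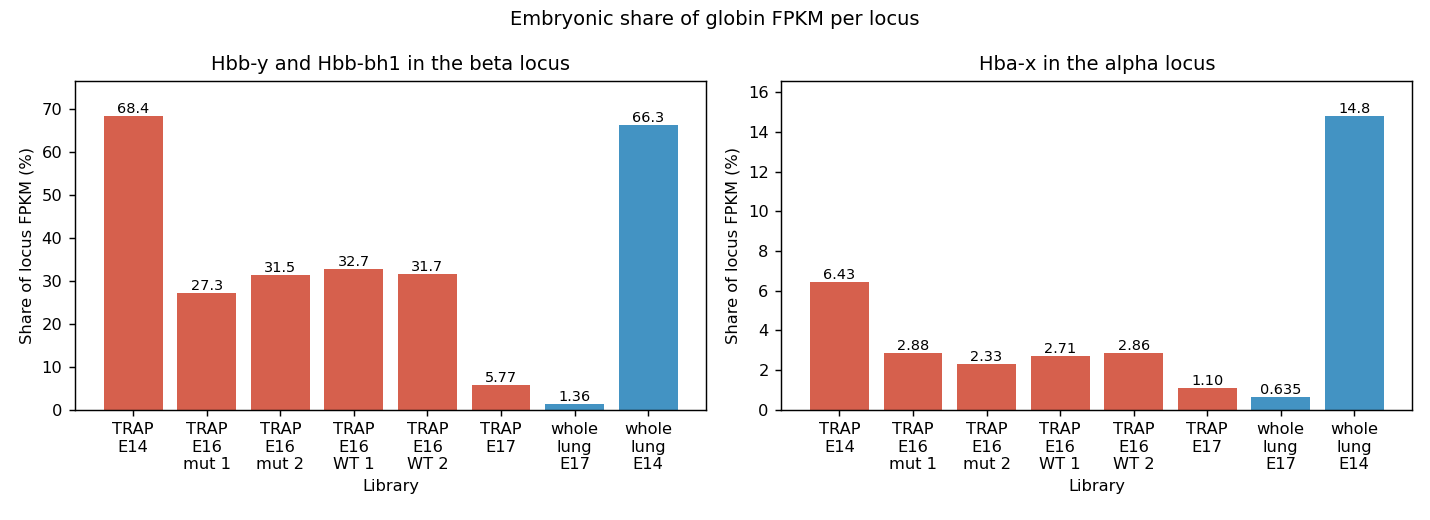
Embryonic share of the summed globin FPKM at the beta locus (Hbb-y and Hbb-bh1, left) and at the alpha locus (Hba-x, right), in percent, for each library, with TRAP in red and whole lung in blue. The beta share is 68.4% in E14 TRAP, 27.3% to 32.7% at E16 and 5.77% in E17 TRAP.

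Total globin did not follow the order of the stages. The alpha locus summed to 4669 FPKM in E14 TRAP, between 447 and 524 FPKM in the 4 E16 libraries and 4793 FPKM in E17 TRAP. The beta locus summed to 1931 FPKM in E14 TRAP, between 259 and 299 FPKM at E16 and 2622 FPKM in E17 TRAP. Alas2, the red cell enzyme of the first step of haem synthesis, stood at 3.71 FPKM in E14 TRAP, between 0.366 and 0.723 FPKM at E16 and 5.62 FPKM in E17 TRAP. The E16 libraries belong to the mutant experiment, so stage and experiment cannot be told apart. Ordered by the alpha locus sum, E17 whole lung was highest, followed by E14 whole lung, E17 TRAP, E14 TRAP and the E16 libraries. The summed bounds of E17 TRAP (4559 to 5027) and E14 TRAP (4423 to 4915) overlapped, and those of the 2 whole lung libraries did not. Summed bounds add the bounds of the records and are no confidence interval of the sum, so this overlap is a description only.

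Genes that red cells use with globin were read from 4 lists of 57 genes covering haem synthesis and iron, the membrane, the cytoplasm and the erythroid transcription factors. In E17 against E14 whole lung, 36 had a level to compare, and 2 (Fam210b and Myb) were at least 2-fold higher and 1 at least 2-fold lower. Among all 12493 records, 4.83% were at least 2-fold higher and 1.3% at least 2-fold lower. The median log2 difference was 0.18 over the 36 genes, beside -0.01 over all records. The 1 lower gene was Slc4a1, the anion exchanger band 3 of the red cell membrane, with 3.84 FPKM at E17 and 12.03 FPKM at E14. Alas2 stood at 52.4 FPKM at E17 and 30.0 FPKM at E14. Klf1 and Gata1, erythroid transcription factors, were under 1 FPKM in all 8 libraries.

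In TRAP against whole lung, with the stages as a term of the fit, 36 of these genes were tested with limma, and 10 rose and 14 fell, where 23.6% and 17.1% of all records did. Alas2 fell by 2.86 on the log2 scale (adjusted p = 0.000415, limma with Benjamini-Hochberg adjustment), with 5.62 FPKM in TRAP against 52.4 FPKM in whole lung at E17 and 3.71 FPKM against 30.0 FPKM at E14. Slc4a1, Gata2, Tal1 and Lmo2 fell too, with log2 differences of -2.21, -1.68, -1.44 and -2.49. Some of the 14, among them Slc4a1, Gata2 and Tal1, passed the filter of a mean of 1 FPKM only through whole lung. Those genes had to be lower in TRAP to be tested, so their place in the count supports nothing. The 10 that rose included Slc2a1 (0.69), a glucose transporter, and Prdx2 (0.51), a peroxidase. Icam4, also among the 10, was under 1 FPKM in both whole lung libraries and passed the filter only through TRAP. It had to be higher in TRAP to be tested, so its place in the count supports nothing either. The median over the 36 genes was -0.05, beside 0.05 over all records. This fit had 1 residual degree of freedom.

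Alas2 and Slc4a1 kept low shares in TRAP at both stages, but they do not stand for the red cell lists, where 10 rose and 14 fell. Alas2 in TRAP was 10.7% of its whole lung level at E17 and 12.4% at E14, and Slc4a1 8.88% at E17 and 9.83% at E14. Slc4a1 was only 0.341 FPKM in E17 TRAP. Car2 stood nearer to whole lung at E17, with 84.5 FPKM in TRAP against 119 FPKM, than at E14, with 22.7 against 89.9 FPKM. Markers of other cells were lower in TRAP too: all 10 endothelial, all 10 tested leukocyte and all 10 mesenchymal markers fell, where 17.1% of all records did. Some, among them C1qa, Cd68, Csf1r and Laptm5, were under 1 FPKM in both TRAP libraries and passed the filter only through whole lung. They had to be lower in TRAP to be tested, so their place in the counts supports nothing. Endothelial markers summed to 104 FPKM in TRAP against 623 FPKM in whole lung at E17, and to 67.1 FPKM in TRAP against 342 FPKM in whole lung at E14. Leukocyte markers summed to 19.6 FPKM in TRAP against 152 FPKM in whole lung at E17, and to 13.5 FPKM in TRAP against 85.5 FPKM in whole lung at E14. The part of these cells in the globin values was not tested.

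Known regulators of the globin switch were listed in 18 genes, of which 15 were tested, and 4 rose and none fell in TRAP against whole lung by limma, where 23.6% of all records rose and 17.1% fell. The share that rose was thus near that of all records. Bcl11a, a repressor of embryonic and fetal globin genes in red cells, rose by 0.59 on the log2 scale, with 14.7 FPKM in TRAP against 8.30 FPKM in whole lung at E17 and 17.9 FPKM against 13.2 FPKM at E14. Mbd3, a subunit of the NuRD repressor complex, rose by 0.65, Igf2bp2 by 0.40 and Gatad2a by 0.40 (adjusted p between 0.00495 and 0.0327, limma with Benjamini-Hochberg adjustment). Of 15 regulators compared in whole lung, Igf2bp1 and Igf2bp2, RNA-binding proteins of fetal tissues, were at least 2-fold lower at E17. Myb was at least 2-fold higher, where 1.3% of all records were lower and 4.83% higher by that much. The listed regulators are expressed in many cell types, and their level in red cells was not measured.

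At E16 the summed globin level of Sox9 mutant and wild-type TRAP differed by less than the spread between libraries. The alpha locus summed to 447 and 524 FPKM in the mutant libraries and to 459 and 488 FPKM in the wild-type libraries. The beta locus summed to 273 and 299 FPKM in the mutant libraries and to 259 and 290.5 FPKM in the wild-type libraries. The groups overlapped at both loci. The log2 difference was 0.03 for alpha (SE 0.08, adjusted p = 0.804) and 0.06 for beta (SE 0.08, adjusted p = 0.585, both limma with Benjamini-Hochberg adjustment). With libraries rescaled to a common total, which placed the median of all records at 0.41, the differences were 0.49 for alpha and 0.52 for beta, and neither passed.

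Hbb-y stood at 74.2 and 94.1 FPKM in the mutant libraries and at 84.6 and 91.9 FPKM in the wild-type libraries, and the groups overlapped (log2 difference -0.08). Hba-x stood at 12.9 and 12.2 FPKM in the mutant libraries and at 12.4 and 13.97 FPKM in the wild-type libraries, which overlapped as well (log2 difference -0.07). Hbb-bh1, with 0.168 and 0.203 FPKM in the mutant libraries and 0.101 and 0.186 FPKM in the wild-type libraries, rested on 1 or 2 fragments a library and was not tested. The embryonic share of the beta locus averaged 29.4% ± 3.0 in the mutant and 32.2% ± 0.746 in the wild type (SD, n = 2 each; two-sided exact permutation p = 0.33, the smallest that 2 against 2 allows). The embryonic share of the alpha locus averaged 2.61% ± 0.395 in the mutant and 2.79% ± 0.107 in the wild type (SD, n = 2 each; two-sided exact permutation p = 1).

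Single adult records did differ. Of the 8 member records tested, 3 rose and 1 fell in the mutant, where 17.4% rose and 14.3% fell (31.6% in either direction) among all 11872 records. Hbb-bs stood at 9.14 and 5.57 FPKM in the mutant libraries and at 0.00292 and 0.00290 FPKM in the wild-type libraries, without overlap. It rose by 3.02 on the log2(FPKM + 1) scale (SE 0.21, adjusted p = 0.00035, limma with Benjamini-Hochberg adjustment). It passed the filter of a mean of 1 FPKM only through the mutant libraries, so it had to differ to be tested, and its place among the 3 records that rose supports nothing. Hbb-b1, on nearly the same bases, stood at 108 and 119.9 FPKM in the mutant libraries and at 104 and 121 FPKM in the wild-type libraries and overlapped (log2 difference 0.02).

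The records named Hba-a1 differed in opposite directions at the 2 adult alpha copies. The RefSeq promoter windows place Hba-a1 at the first copy alone and Hba-a2 at the second alone. These records are therefore not read as the behaviour of single genes. At the first copy Hba-a1 stood at 93.9 and 81.6 FPKM in the mutant libraries and at 153 and 136 FPKM in the wild-type libraries and fell by 0.72 on the log2 scale (adjusted p = 0.0027, limma with Benjamini-Hochberg adjustment). There Hba-a2 stood at 139 and 183 FPKM in the mutant libraries and at 85.9 and 114 FPKM in the wild-type libraries and rose by 0.68 (adjusted p = 0.0322, same test). At the second copy Hba-a1 stood at 144 and 163 FPKM in the mutant libraries and at 111 and 129 FPKM in the wild-type libraries and rose by 0.35 (adjusted p = 0.0358, same test). None of these 3 records overlapped between the groups, but the share of all records without overlap is not given here, so nothing is read from that. Records that share bases also share fragments, so the 3 are not independent. Hba-a2 at the second copy stood at 57.9 and 83.5 FPKM in the mutant libraries and at 96.2 and 94.9 FPKM in the wild-type libraries, and the difference of -0.45 did not pass (adjusted p = 0.0822, same test). Without wild type replicate 1 the calls of Hba-a2 at the first copy and Hba-a1 at the second were lost (adjusted p = 0.12 and 0.145, limma), and without mutant replicate 2 they were lost too (adjusted p = 0.0591 and 0.0803, limma). Hba-a2 at the second copy was in turn called as lower without mutant replicate 2 (log2 difference -0.71, adjusted p = 0.000372, limma), with a replicate block (adjusted p = 0.0474, limma) and after centring on the median (adjusted p = 0.0491, limma). With libraries rescaled to a common total, Hba-a1 at the first copy lost its call (log2 difference -0.26, adjusted p = 0.863, limma).

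With overlapping records summed, an alternative added after the data had been seen, none of the 5 sums and single records was called by limma with Benjamini-Hochberg adjustment, and 0 had an unadjusted p under 0.05. The sum of Hbb-bs and Hbb-b1 averaged 121 ± 6.19 FPKM in mutant libraries and 113 ± 11.9 FPKM in wild-type libraries (SD, n = 2 each), a log2 difference of 0.11. The sum at the first alpha copy averaged 248.9 ± 22.6 FPKM in the mutant and 245 ± 7.87 FPKM in the wild type, a log2 difference of 0.02. At the second copy it averaged 224 ± 31.9 FPKM in the mutant and 216 ± 11.6 FPKM in the wild type, a log2 difference of 0.05. Hbb-bt, the adult beta gene with a record of its own, stood at 81.7 and 79.6 FPKM in the mutant libraries and at 69.7 and 77.4 FPKM in the wild-type libraries. Its groups did not overlap, and its log2 difference of 0.13 did not pass (adjusted p = 0.164, limma with Benjamini-Hochberg adjustment).

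**Figure D4:**
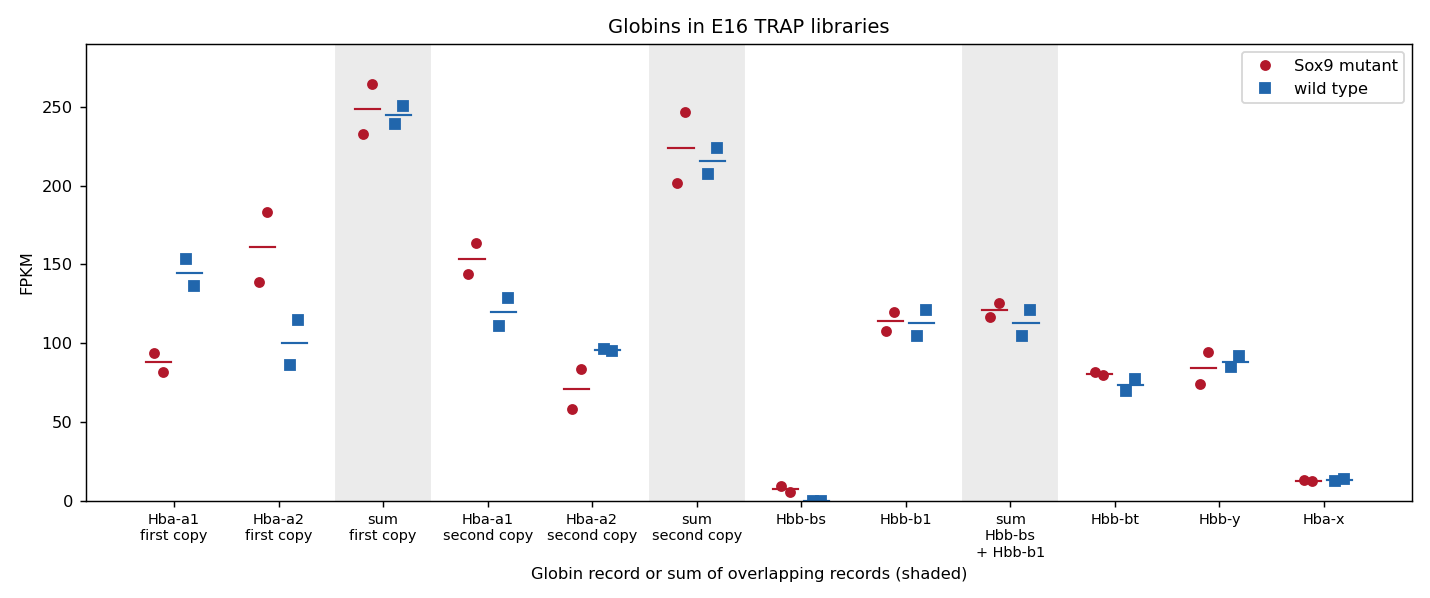
Globin levels in FPKM in the 2 Sox9 mutant (red circles) and 2 wild-type (blue squares) TRAP libraries at E16, with the mean as a line, for single records and, on grey, for sums of records that cover the same bases. Hba-a1 and Hba-a2 at the first copy differ in opposite directions, with log2 differences of -0.72 and 0.68, and their sum differs by 0.02.

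Of the red cell genes beside globin, 29 were tested in the mutant, and 2 rose and 5 fell, where 17.4% of all records rose and 14.3% fell. The median log2 difference was -0.01, beside 0.01 over all records. The number called varied with a replicate left out and was 0 after rescaling the libraries to a common total. The share of all records called in those fits is not given here, so that change is not read as a result about these genes. Epor, the erythropoietin receptor, rose by 0.37 and Myb, a transcription factor of blood progenitors, by 1.19. Car2, a carbonic anhydrase, fell by 1.78, the transferrin receptor gene Tfrc by 0.63, Fam210b by 0.56, the mitochondrial iron importer gene Slc25a37 by 0.28 and Epb4.1, which encodes a membrane skeleton protein, by 0.25. Alas2 stood at 0.366 and 0.723 FPKM in the mutant libraries and at 0.699 and 0.417 FPKM in the wild-type libraries and overlapped. Slc4a1 was at most 0.0922 FPKM in the E16 libraries.

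Of the 15 switch regulators tested in the mutant, 7 rose and 1 fell, where 17.4% of all records rose and 14.3% fell. Bcl11a fell by 0.70 on the log2 scale, with 14.04 and 13.04 FPKM in the mutant libraries and 23.8 and 21.5 FPKM in the wild-type libraries. Klf3, a repressor of the same family as Klf1, rose by 0.86, Hic2 by 0.62, Zbtb7a by 0.56 and Igf2bp3 by 0.51. Of the 10 listed liver genes 5 were tested, and Alb, Trf, Apoa1 and Afp rose in the mutant. Alb stood at 37.9 and 54.2 FPKM in the mutant libraries and at 0.465 and 0.191 FPKM in the wild-type libraries. Alb and Apoa1 (0.699 and 0.638 FPKM in wild type) passed the filter only through the mutant libraries, and Afp (1.05 and 0.953 FPKM in wild type) was at its limit. Alb and Apoa1 had to differ to be tested, so their place in the count supports nothing. Apoa2, the remaining liver gene tested, fell. Hp, which encodes the haemoglobin-binding protein haptoglobin, rose by 2.69, with 42.4 and 44.4 FPKM in the mutant libraries and 6.29 and 5.47 FPKM in the wild-type libraries. The part of these genes in the globin values was not tested.

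The genes whose levels ran most like the embryonic globin sum over the 8 libraries were Slc39a6, Fam208b, Matr3, Cse1l and Casp8ap2, with Pearson correlations on log2(FPKM + 1) between 0.984 and 0.989 among 10235 ranked records. Those most like the adult sum were Enc1, Pcdh17, Cwc22, Rftn2 and Smap2, with correlations between 0.993 and 0.996. Within the red cell lists the closest to the adult sum was Alas2 (0.966), and the closest to the embryonic sum was Epb4.1 (0.936). The 8 points share stages, fractions and the E16 experiment, so these correlations describe the libraries and carry no test.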

How the data were processed

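RNA sequencing of TRAP or whole lung RNA was done on 8 mouse lung libraries. The authors deposited, per the file headers, 1 table per library with an FPKM value and its lower and upper bounds for each of 24487 records. Per the submitters' processing notes, the tools were TopHat2 2.0.14, Bowtie2 2.2.3, Cufflinks 2.2.1 and Cuffnorm, with the mm10 build. The scaling of library totals is not described. Deposited starts were counted from 0, and 1 was added.

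Values were used as deposited. Fragments were inferred as the squared ratio of a value to its standard error, reading a bound as 2 standard errors from the value; 60.4% to 62.2% of low values per library came out whole within 0.02, so no count model was run. The status field named no failed estimate for a globin record. Some genes of the lists are not reported here. Tests used limma 3.58.1 in R 4.3.3 (eBayes with trend) on log2(FPKM + 1), which understates changes of low genes, for records averaging at least 1 FPKM, two-sided, with Benjamini-Hochberg adjustment at 0.05. The mutant fit had 2 residual and 3.73 prior degrees of freedom over 11872 records, and the fit of TRAP against whole lung 1 and 4.47 over 12320. The mutant fit was tested on simulated data in which records varied independently. No such test is reported for the fit of TRAP against whole lung. Single-library contrasts counted records differing at least 2-fold.

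The members, gene lists and tests were chosen with earlier results of these data known. Named genes were all globins, up to 6 genes of each list with the largest difference, fixed red cell genes, and the 5 records most like each globin sum among those reaching 5 FPKM. Epb4.1, Epb4.2 and Emr1 are older symbols of listed genes. Alternatives were other pseudocounts, filters and scalings, leaving out each replicate, a replicate block and, added after the data were seen, summed overlapping records. Promoters came from RefSeq, which matched 6 of the 8 genes looked up; none is printed for Hbb-bh1 and Hbb-b1.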

Additional observations from a re-analysis of the deposited data

Results flagged for a closer look

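Between E17 and E14, 3 globin quantities differed in opposite directions in TRAP and in whole lung, and with 1 library each the difference between the fractions was not tested. Hba-a1 at the second copy had a log2 difference of -0.13 in TRAP and 0.50 in whole lung. The sum of Hba-a1 and Hba-a2 at that copy had -0.053 in TRAP and 0.36 in whole lung. The beta locus sum had 0.44 in TRAP and -0.27 in whole lung, and with libraries rescaled to a common total the TRAP value was -0.06.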

How the results depend on the processing

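Most globin values kept their direction and call under the alternatives run, and all mutant comparisons rest on 2 libraries a group. The count of globin records called in the mutant was 2 with no filter, 1 after rescaling to a common total, and between 2 and 4 with a replicate left out. With overlapping records summed it was between 0 and 1, the 1 arising without mutant replicate 2. Red cell genes called in the mutant numbered 0 after rescaling and between 3 and 10 with a replicate left out. After rescaling, the median over all records stood at 0.41 in the mutant fit and -0.30 in the TRAP fit. The share of all records called under each alternative is not given here. A change in these counts is therefore not read as a result about globins or red cell genes.

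The mutant log2 differences near 0 changed sign: after rescaling Hba-x was 0.35, Hbb-y 0.38 and Hba-a2 at the second copy 0.0017, beside 0.49 for the alpha and 0.52 for the beta locus, and after centring the alpha locus was -0.0159, Hbb-b1 -0.0316 and the first-copy sum -0.0273. Leaving out a replicate gave ranges of -0.0819 to 0.145 for the alpha locus, -0.0231 to 0.143 for the beta locus, -0.0725 to 0.113 for the first-copy sum, -0.0943 to 0.195 for the second-copy sum, -0.0906 to 0.123 for Hbb-b1, -0.145 to 0.0103 for Hba-x and -0.245 to 0.0932 for Hbb-y. The embryonic share differed by -0.46 to 0.10 points at the alpha locus and by -4.96 to -0.72 at the beta locus. Hba-a2 at the first copy and Hba-a1 at the second lost their calls with no filter, after rescaling, without wild type replicate 1 and without mutant replicate 2, and Hba-a1 at the first copy after rescaling. Calls as lower were gained by Hba-a2 at the second copy without mutant replicate 2, with the replicate block and after centring, and by Hbb-y without mutant replicate 2 (adjusted p = 0.0426, limma). Hbb-bs ranged between 0.79 and 6.14 with the pseudocount and was called in the 11 alternatives that tested it. It was not tested with the filter of mean 5 FPKM. Its fragments are shared with Hbb-b1, and their sum differed by 0.11 in the main fit and was called in no alternative. The kept call is therefore not read as a change of the gene.

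In E17 against E14, the alpha locus in TRAP was -0.47 after rescaling, -0.0040 with records under 200 bases left out and -0.0100 after centring, and the beta locus -0.0636 after rescaling. The embryonic sum in whole lung was -5.55 with short records left out. TRAP over whole lung after rescaling was -1.54 (alpha) and -2.99 (beta) at E14 and -2.27 (alpha) and -2.73 (beta) at E17, and the beta value at E14 was -2.95 with short records left out. The cause of these shifts was not tested.

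The replicate numbers are only shared numbers, with deviations that correlated by 0.0072; a fit with the replicate block called 5 globin records, 0 sums and 6 red cell genes, and gave 0.03 for the alpha and 0.06 for the beta locus.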
